A study of Rattus norvegicus with 16 samples.

Results

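Class B (secretin family) G protein-coupled receptors bind peptide hormones at the cell surface. The 8 receptor genes considered here were Sctr (secretin), Vipr1 and Vipr2 (vasoactive intestinal peptide and PACAP), Adcyap1r1 (PACAP), Glp1r (glucagon-like peptide 1), Calcrl (calcitonin gene-related peptide and adrenomedullin), Crhr1 (corticotropin-releasing hormone) and Pth1r (parathyroid hormone). Of the 31042 probe sets on the array that are not controls, 13 carried the single symbol of a listed gene: 4 for Adcyap1r1, 2 each for Vipr1, Calcrl and Pth1r, and 1 each for Sctr, Vipr2 and Glp1r. These 13 probe sets stand for 7 of the 8 genes, and Crhr1 was not analysed here. The family was selected on the Sctr values of these arrays, which stood high in the mutant groups, so Sctr is described without a test.

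The arrays held total RNA of rat adrenal tissue from 16 samples of a mixed Sprague–Dawley white eye/Wistar–Kyoto strain. The mutant samples came from rats with a p27Kip1 (Cdkn1b, a cyclin-dependent kinase inhibitor) mutation: 8 adrenal medullary hyperplasias at 2 months of age, and 4 pheochromocytomas (tumours of the chromaffin cells), 3 taken at 8 months and 1 at 9 months. Hyperplasia was set against 2 pools of wild-type adrenal medulla at 2 months, of 2 and 3 animals. Pheochromocytoma was set against 2 older wild-type pools of 2 animals each, 1 at 10 months and 1 of animals aged 12 and 17 months. A pool shows less than the spread between single animals, and the mutant arrays carry no pool size in their labels. The labels do not limit the mutation to a cell type. Cdkn1b transcript itself was higher by its brighter probe set (1373812_at) in hyperplasia by 0.73 ± 0.11 and in pheochromocytoma by 0.94 ± 0.12 (log2, SE; limma, adjusted p = 0.00101 and 0.000256), and not by the dimmer 1369192_at (-0.81 and 0.0025, neither past the test), so its level does not check the mutant labels.

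Secretin family receptors couple mainly to the stimulatory G protein Gs, which activates adenylyl cyclase, and the cyclic AMP formed acts through protein kinase A, EPAC and the CREB transcription factors. In the adrenal medulla, PACAP released from the splanchnic nerve acts on the receptor encoded by Adcyap1r1 and drives catecholamine secretion and synthesis. The secretin receptor is best known from pancreatic and bile ducts, where secretin stimulates bicarbonate secretion. Calcrl needs a partner, a receptor activity-modifying protein (RAMP), to reach the surface, and the RAMP sets the ligand it prefers.

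Values are log2 expression levels, so a difference of 1 is a doubling, and levels of different probe sets are not compared with each other. The chromaffin cell markers averaged 12.01 to 12.90 over the 16 arrays, so the labelled tissue carried its defining transcripts. Adrenal cortex markers averaged 10.34 to 12.41 on the same arrays, so this does not show tissue free of cortex. The chromaffin marker mean was 12.68 in pheochromocytoma against 12.25 in older wild type. In pheochromocytoma 5 of the 12 chromaffin markers were called higher and 0 lower (median difference 0.40), beside 9.66% and 7.10% of all genes at 1 probe set per gene. In hyperplasia 1 of 12 was called higher and 0 lower, beside 5.42% and 3.47% of all genes. On 6 of the 16 arrays the levels of Xist and the Y-linked Eif2s3y went against the labelled sex: 4 hyperplasias and both young wild-type pools, so sex was not used in the fit. A difference passed the test at an adjusted p under 0.05 (limma across all probe sets, Benjamini-Hochberg). The 3′ minus 5′ signal of the control transcripts, which is larger where RNA is more degraded or shorter, separated the older from the younger samples: for hexokinase it was 2.16 to 3.30 in pheochromocytoma and 2.29 to 2.92 in older wild type, against 1.21 to 1.63 over the hyperplasias and 1.07 to 1.18 over the young pools. Age and this difference cannot be told apart.

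Sctr was high in every mutant sample and low in every wild-type pool. The level of Sctr in hyperplasia was 7.56 at the lowest, 8.77 at the median and 8.91 at the highest of 8 arrays, against 4.92 and 4.58 in the young wild-type pools. In pheochromocytoma the level of Sctr was 7.31, 8.43, 8.54 and 8.48, against 6.12 and 5.09 in the older wild-type pools. Neither pair of groups overlapped. In bulk tissue, fewer cells of a type and less RNA per cell cannot be told apart. The mean in hyperplasia exceeded 76.2% of all probe sets on those arrays, against 24.0% in young wild type, where 1 of the 2 pools lay below the first quartile of its own array. The mean in pheochromocytoma exceeded 71.9% of probe sets, against 36.1% in older wild type.

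The Sctr difference was 3.85 ± 0.35 (log2, SE) for hyperplasia minus young wild type, a measured 14.4-fold higher level. For pheochromocytoma minus older wild type it was 2.59 ± 0.38 (log2, SE), a 6.01-fold higher level. These differences are given as descriptions, and the first, like the gap between them, rests on a young wild-type mean of 4.75, below the first quartile of those arrays (4.81), where dim levels resolve poorly. The second was smaller than the first by 1.26 ± 0.51 (log2, SE), while the mutant groups themselves were close: pheochromocytoma minus hyperplasia was -0.41 ± 0.27. The older wild-type pools stood 0.85 ± 0.44 above the young ones. Without the older pool at 6.12 the pheochromocytoma difference was 3.10, and without the other older pool it was 2.07. Leaving out any single array kept the hyperplasia difference between 3.68 and 4.02, and leaving out the 4 hyperplasias whose sex markers contradict their labels gave 3.67.

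Among the hyperplasias, 7 of 8 arrays lay between 8.57 and 8.91, and replicate 7 lay apart at 7.56. Among the pheochromocytomas, replicate 1 lay apart at 7.31. That tumour also had the highest adrenal cortex marker mean of the mutant arrays, 11.68, against a range of 10.34 to 11.68 over the 4 pheochromocytomas and 12.02 to 12.41 in older wild type. In hyperplasia replicate 7 the cortex marker mean was 11.22. In replicates 2 and 8, with Sctr at 8.57 and 8.59, it was 11.25 and 11.29. The part of cortex content in either low Sctr level was not tested. The cortex marker mean spanned 10.48 to 11.29 over the hyperplasias, against 11.63 to 11.81 over the young pools, and of 11 cortex genes 3 fell in hyperplasia and 9 in pheochromocytoma, where 3.47% and 7.10% of all genes, at 1 probe set per gene, were called lower. With the mean of those markers as covariate the Sctr difference was 3.17 in hyperplasia and 1.56 in pheochromocytoma. That mean did not overlap between mutant and wild type in either comparison, so this fit cannot separate the cortex markers from the group.

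**Figure D1:**
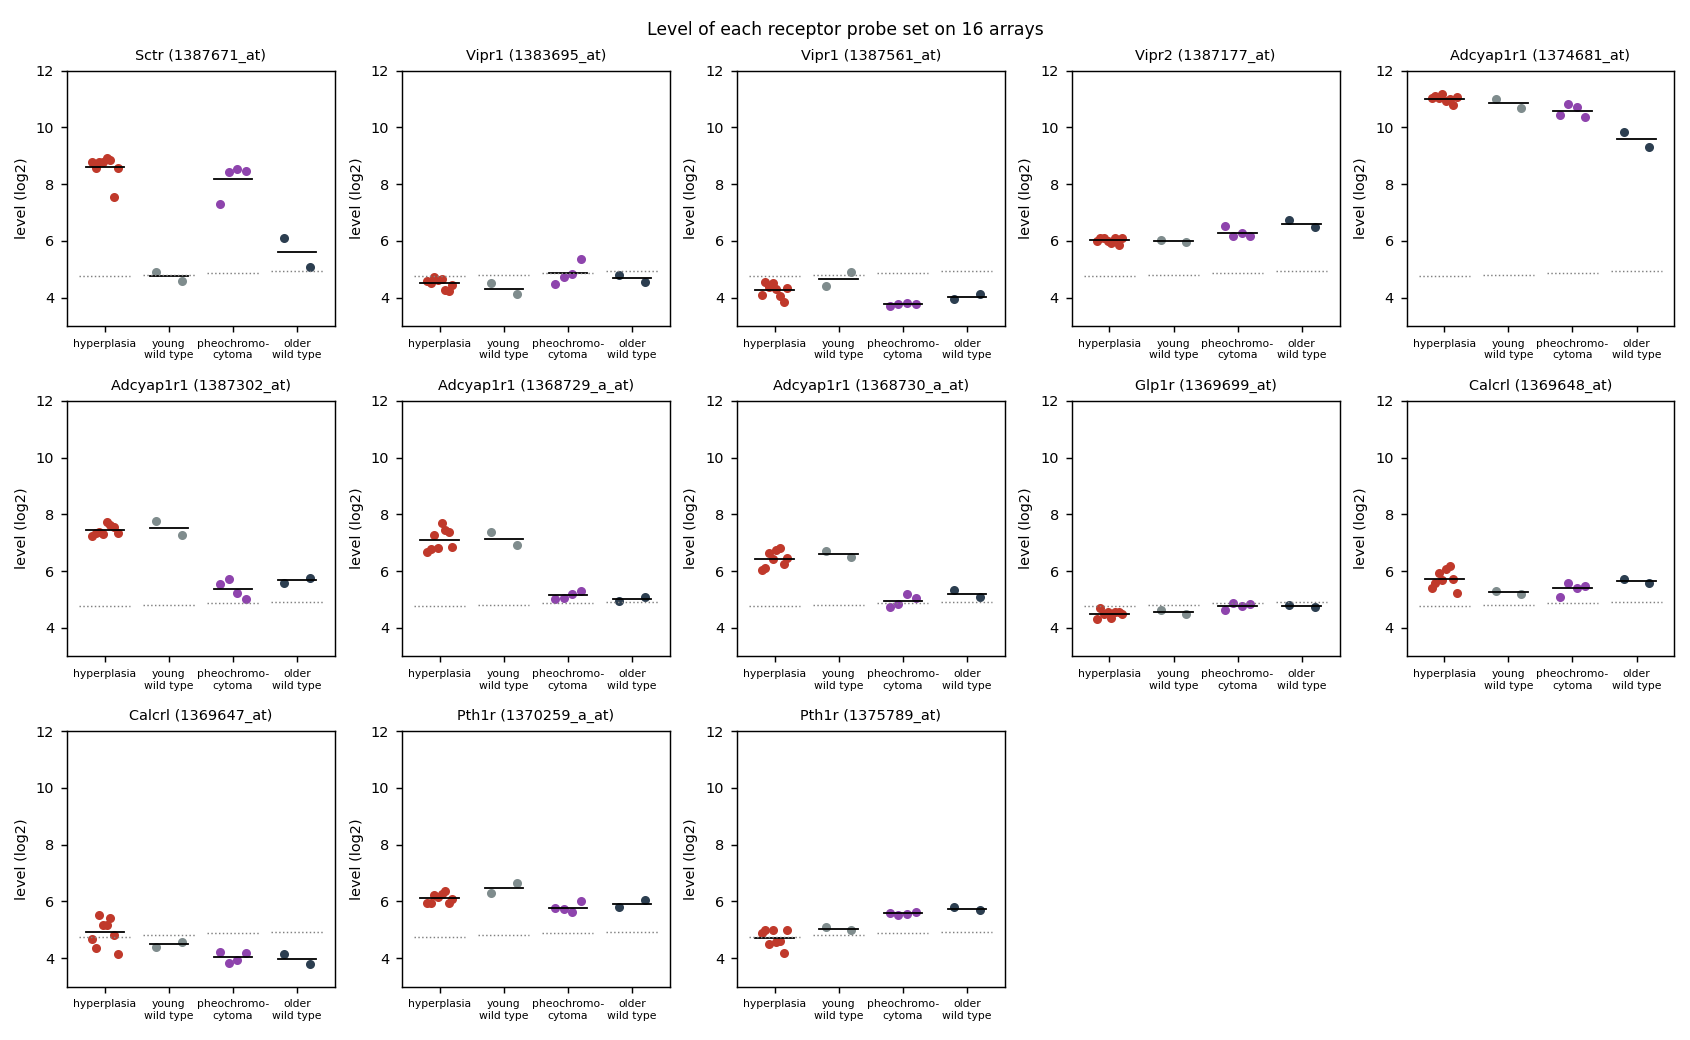
Log2 level of each of the 13 receptor probe sets (1 panel each) in each array, with the mutant group left of its wild-type group, black bars for group means and a dotted line for the first quartile of all probe sets. The Sctr points of hyperplasia (7.56 to 8.91) and pheochromocytoma (7.31 to 8.54) lie above all 4 wild-type points (4.58 to 6.12), and the Vipr1 and Glp1r points lie at or under the dotted line in most arrays.

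The promoter of Sctr is shown because Sctr was the member that stood apart in both mutant groups, and that of Adcyap1r1 because it is the family's adrenal PACAP receptor. The stretches lie upstream of the start, from RefSeq on GRCr8, plus strand, for Sctr at chr13:33680377-33680561 (185 bases, the part of its 250-base window before the annotated gene begins) and for Adcyap1r1 at chr4:85923921-85924170, with capitals marking matches to 5 searched motifs.
Sctr: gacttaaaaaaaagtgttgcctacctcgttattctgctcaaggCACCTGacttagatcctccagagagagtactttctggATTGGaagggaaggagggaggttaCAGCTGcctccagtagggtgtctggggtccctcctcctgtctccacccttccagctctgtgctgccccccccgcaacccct
Adcyap1r1: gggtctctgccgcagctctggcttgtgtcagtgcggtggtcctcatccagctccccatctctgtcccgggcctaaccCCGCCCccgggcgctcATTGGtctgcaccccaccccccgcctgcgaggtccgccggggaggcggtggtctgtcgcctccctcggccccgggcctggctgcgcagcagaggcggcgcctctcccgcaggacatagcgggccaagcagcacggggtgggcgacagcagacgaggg

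The motifs were searched on both strands in a 250-base window at each promoter, and a match describes letters only. For Sctr this window runs past the 185 bases shown into the annotated gene, and its matches all lie in those 185 bases. They were the cAMP response element core TGACG (18.2% of 33469 promoters hold it), its full form TGACGTCA (1.59%, which also counts as a core match), the GC box GGGCGG (30.5%), the E box CANNTG (65.5%) and the CCAAT box (34.0%). The Sctr window held 2 E boxes, 1 CCAAT box and neither form of the cAMP response element. The Adcyap1r1 window held 1 GC box and 1 CCAAT box. The core TGACG lay in the Vipr1 and Pth1r windows, and GC boxes lay in those of Vipr1, Vipr2, Adcyap1r1, Glp1r, Crhr1 and Pth1r but not in those of Sctr and Calcrl. The Sctr window was 56.0% G and C, against 51.2% at the median promoter, and the Pth1r window was 77.6%.

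Besides Sctr, 12 receptor probe sets were tested. In hyperplasia minus young wild type, 0 of the 12 passed. Of all probe sets 7.40% passed (2296), 4.32% higher and 3.08% lower. An unadjusted p under 0.05 was found for 3 of the 12, beside 7045 of all 31042 probe sets. In pheochromocytoma minus older wild type, 1 of 12 passed, higher. Of all probe sets 14.3% passed (4425), 8.31% higher and 5.95% lower. There 2 of the 12 had an unadjusted p under 0.05, beside 9187 of all 31042 probe sets. The difference between the 2 mutant effects passed for 0 of the 12. Of all probe sets 0.0258% passed (8), 0.0193% higher and 0.00644% lower. For that difference 3 of the 12 had an unadjusted p under 0.05, beside 3461 of all 31042 probe sets. The median difference over the 12 was -0.05 in hyperplasia and -0.15 in pheochromocytoma, beside -0.02 and -0.01 over all probe sets.

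**Figure D2:**
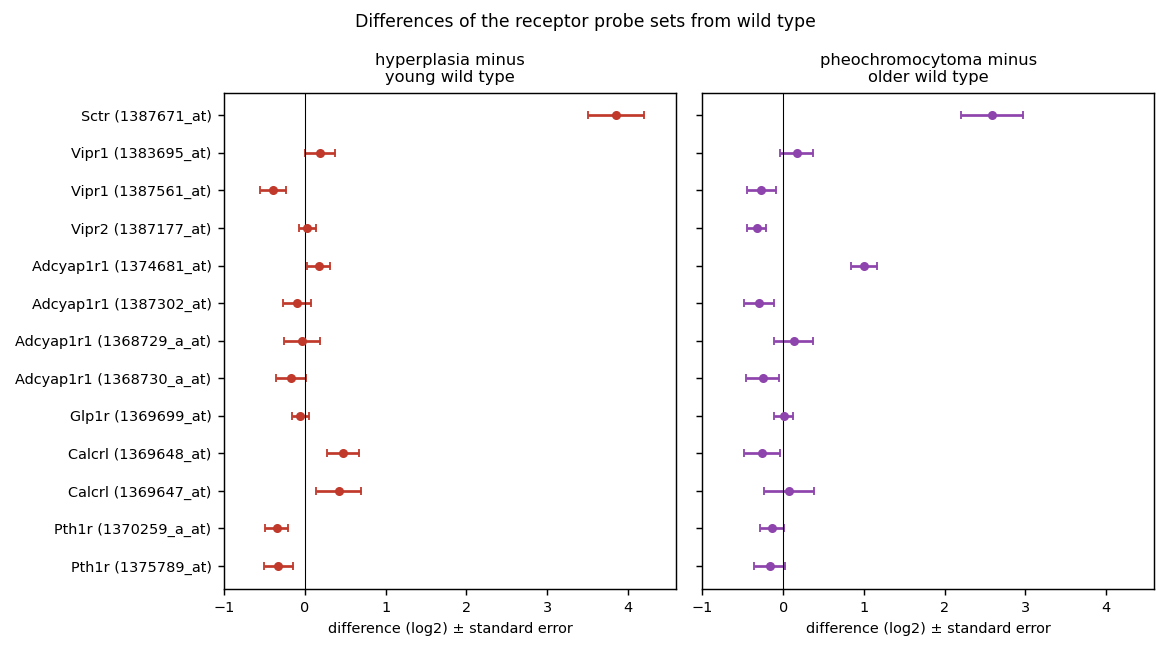
Log2 difference of each receptor probe set from its wild-type group (points) with the standard error (bars). Hyperplasia minus young wild type is on the left. Pheochromocytoma minus older wild type, whose animals were older than those with tumours, is on the right. The Sctr points lie at 3.85 and 2.59, the Adcyap1r1 (1374681_at) point of pheochromocytoma at 1.00, and the remaining points between -0.39 and 0.47.

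Adcyap1r1, the PACAP receptor of chromaffin cells, was measured by 4 probe sets, and 1374681_at was the one that passed. Its level was 10.43, 10.82, 10.71 and 10.38 in pheochromocytoma, against 9.85 and 9.31 in older wild type, with no overlap. The difference was 1.00 ± 0.16 (log2, SE), a 2.00-fold higher level (limma, adjusted p = 0.00114, higher in 4 of 4 tumours). The chromaffin markers were higher in the same comparison, as given above, and their part in this difference and in that of Gipr was not tested. In hyperplasia the level of 1374681_at averaged 11.02 ± 0.11 (SD, n = 8), against 11.00 and 10.69 in young wild type, and the difference of 0.17 ± 0.15 did not pass (limma, adjusted p = 0.534). The interaction did not pass either (limma, 0.83 ± 0.22, adjusted p = 0.188). Without the older pool at 9.31 the pheochromocytoma difference was 0.73. With the cortex marker mean added to the fit the difference was 0.92 and the call ended (limma, adjusted p = 0.137). That mean did not overlap between pheochromocytoma and older wild type, so this fit cannot separate the cortex markers from the group. In it 66 of all probe sets passed, against 4425 without that mean.

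The other 3 Adcyap1r1 probe sets did not show the same pheochromocytoma difference. Pheochromocytoma minus older wild type was -0.29 for 1387302_at, 0.13 for 1368729_a_at and -0.25 for 1368730_a_at, and none of these passed. On the mean of all 4 probe sets the difference was 0.15 (limma, adjusted p = 0.539). The probe sets disagreed on Adcyap1r1 in the tumours, and where each lies on the transcript was not analysed here.

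The Adcyap1r1 probe sets moved together between the younger and the older samples. For 1387302_at the level was 5.56, 5.71, 5.24 and 5.03 in pheochromocytoma, against 7.23 to 7.72 (median 7.36) in hyperplasia. In wild type it was 5.60 and 5.77 in the older pools, against 7.78 and 7.28 in the young pools. Pheochromocytoma minus hyperplasia was -2.05 ± 0.13 for 1387302_at, -1.97 ± 0.17 for 1368729_a_at, -1.48 ± 0.14 for 1368730_a_at and -0.43 ± 0.11 for 1374681_at (limma, largest adjusted p = 0.00564). Older minus young wild type was -1.85, -2.14, -1.40 and -1.27 for the same probe sets (limma, largest adjusted p = 0.000576). The older and younger samples also differ in the 3′ minus 5′ control signal given above. With that signal as a covariate none of these 8 differences passed (1387302_at: -1.26, limma adjusted p = 0.0706, and -1.11, adjusted p = 0.0997). The mean signal was 1.34 at most on the younger arrays and 1.73 at least on the older ones, so that fit cannot separate it from age. Calls over all probe sets fell there from 12631 to 651 and from 7366 to 1156.

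**Figure D3:**
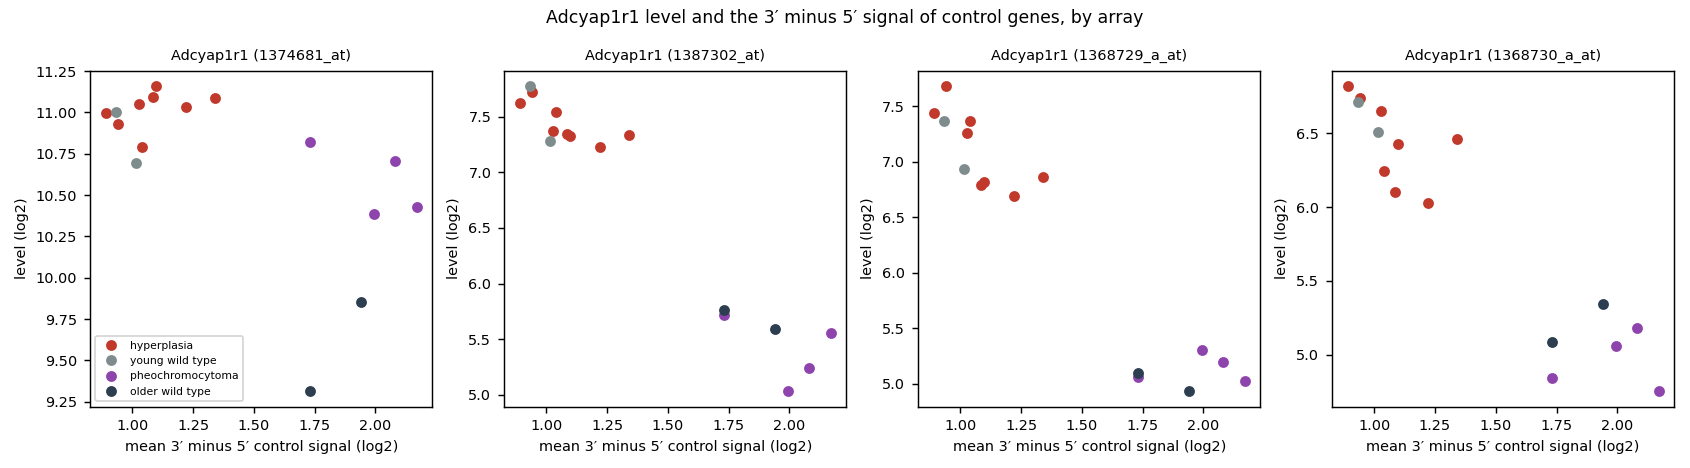
Log2 level of each Adcyap1r1 probe set (1 panel each) against the mean 3′ minus 5′ control signal (log2) of the same array, 1 point per array, coloured by group. The 10 younger arrays lie left and the 6 older arrays lie right in every panel, and the pheochromocytoma points of 1374681_at (10.38 to 10.82) lie above the older wild-type points (9.31 and 9.85).

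Across the family, 10 of the 12 probe sets passed for pheochromocytoma minus hyperplasia (3 higher, 7 lower), where 40.7% of all probe sets passed (20.4% higher, 20.3% lower). For older minus young wild type 8 of 12 passed (2 higher, 6 lower), where 23.7% of all probe sets passed (10.4% higher, 13.3% lower). The 4 Adcyap1r1 probe sets are 4 of each count and share a gene. With the 3′ minus 5′ signal as a covariate, 0 of 12 and 1 of 12 passed, beside 651 and 1156 of all 31042 probe sets.

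Vipr1 and Vipr2 encode the receptors shared by VIP and PACAP. Vipr2 (1387177_at) was 6.52, 6.18, 6.27 and 6.18 in pheochromocytoma, against 6.73 and 6.49 in older wild type, so 1 tumour overlapped with the pools. The difference was -0.33 ± 0.12 (limma, adjusted p = 0.0777), and it passed under quantile normalization (-0.41, limma adjusted p = 0.0372) and without pheochromocytoma replicate 1 (-0.40, limma adjusted p = 0.0283). Vipr2 averaged 6.02 in hyperplasia and 6.00 in young wild type. Its level was higher in pheochromocytoma than in hyperplasia by 0.26 ± 0.08 (limma, adjusted p = 0.0195; 0.100 without pheochromocytoma replicate 1) and higher in older than in young wild type by 0.62 ± 0.14 (limma, adjusted p = 0.00412). Both Vipr1 probe sets lay below the first quartile on most arrays: 1387561_at averaged 3.77 in pheochromocytoma, 4.04 in older wild type, 4.26 in hyperplasia and 4.65 in young wild type.

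Glp1r was dim in all groups, at 4.33 to 4.71 in hyperplasia and 4.49 and 4.64 in young wild type, and at 4.62 to 4.87 in pheochromocytoma against 4.80 and 4.74 in older wild type. All 8 hyperplasia arrays placed Glp1r under the first quartile. Its differences of -0.06 and 0.007 from wild type did not pass.

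Calcrl, which takes CGRP or adrenomedullin depending on the RAMP beside it, was 5.22 to 6.18 (median 5.71) in hyperplasia by 1369648_at, against 5.30 and 5.21 in young wild type. The difference was 0.47 ± 0.20 (limma, adjusted p = 0.172), and it passed with the 3′ minus 5′ signal as a covariate (0.63, limma adjusted p = 0.0101). In pheochromocytoma the same probe set was 5.10, 5.60, 5.40 and 5.49, against 5.74 and 5.58 in older wild type, and the difference of -0.26 ± 0.22 did not pass. Endothelial markers, a cell type known to carry Calcrl, averaged 8.46 to 8.79 in hyperplasia against 8.66 to 8.70 in young wild type. The dimmer probe set 1369647_at was lower in pheochromocytoma than in hyperplasia by 0.87 ± 0.22 (limma, adjusted p = 0.0043). With the 3′ minus 5′ signal as a covariate the difference was -0.02, in a fit that cannot separate that signal from age.

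Pth1r, the receptor of parathyroid hormone and its related peptide, was measured by probe sets that disagreed. In pheochromocytoma minus hyperplasia, 1370259_a_at fell by 0.33 ± 0.11 (limma, adjusted p = 0.0221) and 1375789_at rose by 0.86 ± 0.14 (limma, adjusted p = 9.68e-05). In older minus young wild type they again had opposite signs, -0.54 ± 0.18 and 0.70 ± 0.22 (limma, adjusted p = 0.0348 and 0.0311), and both calls ended without either older pool (adjusted p of 0.0504 to 0.188). The fall of 1370259_a_at in pheochromocytoma also lost its call without replicate 1, 2 or 3 (limma, adjusted p = 0.0541 to 0.0828). Neither passed in a mutant group against its wild type, where 1370259_a_at was -0.35 ± 0.14 in hyperplasia and -0.14 ± 0.15 in pheochromocytoma.

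Most peptide ligands did not pass. Of 14 measured, 2 fell in hyperplasia and 1 fell in pheochromocytoma, with medians of -0.14 and -0.18 against -0.01 and 0.005 over all genes. Over all genes, at 1 probe set per gene, 8.89% passed in hyperplasia (5.42% higher, 3.47% lower) and 16.8% in pheochromocytoma (9.66% higher, 7.10% lower). Vip, the ligand of Vipr1 and Vipr2, was 6.32 to 8.19 (median 6.86) in hyperplasia, against 8.79 and 8.81 in young wild type, a difference of -1.90 ± 0.35 (limma, adjusted p = 0.00421, lower in 8 of 8). Vip was 5.32, 6.12, 6.18 and 5.42 in pheochromocytoma, against 7.83 and 7.35 in older wild type, a difference of -1.83 ± 0.39 (limma, adjusted p = 0.00601). Calca, which encodes calcitonin and CGRP, was 5.45 to 6.00 in hyperplasia, against 7.02 and 6.63 in young wild type, a difference of -1.08 ± 0.15 (limma, adjusted p = 0.000782). Its difference of -0.37 ± 0.17 in pheochromocytoma did not pass. The Vip call in pheochromocytoma ended without older pool 2 (limma, adjusted p = 0.0502), and that in hyperplasia ended without young pool 2 (0.0651) and without the 4 hyperplasias with contradictory sex markers (0.0521).

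Sct, the gene of secretin itself, was 4.90 to 5.79 in hyperplasia and 5.27 and 5.19 in young wild type. It was 5.24, 5.24, 4.83 and 5.30 in pheochromocytoma and 4.95 and 5.10 in older wild type. The Sct differences of 0.008 ± 0.18 and 0.13 ± 0.19 did not pass. Adcyap1, the gene of PACAP, was dim, at 3.61 to 4.03 in hyperplasia, 3.76 and 4.02 in young wild type, 3.84 to 4.14 in pheochromocytoma and 4.22 and 4.11 in older wild type. Adm, the gene of adrenomedullin, was bright and its differences of -0.11 and 0.31 did not pass.

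Of 6 other class B receptors measured, 0 passed in hyperplasia and 1, Gipr, passed higher in pheochromocytoma, where 8.89% and 16.8% of all genes passed. Gipr, the receptor of glucose-dependent insulinotropic polypeptide, was 6.02, 6.62, 7.22 and 7.18 in pheochromocytoma, against 5.34 and 5.36 in older wild type, with no overlap. The difference was 1.41 ± 0.24 (limma, adjusted p = 0.00153), and in hyperplasia it was 0.27 ± 0.22 (limma, adjusted p = 0.503). With the mean of the cortex markers in the fit the Gipr difference was 0.76 (limma, adjusted p = 0.269). In that fit 66 of all probe sets passed, and it cannot separate the cortex markers from the group. Gcgr, the glucagon receptor, was 7.39, 8.23, 8.32 and 8.26 in pheochromocytoma, against 7.60 and 6.83 in older wild type, and the difference of 0.83 ± 0.38 did not pass (limma, adjusted p = 0.156).

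Among 5 receptor accessory proteins, 0 passed in hyperplasia and 1 passed in pheochromocytoma, where 8.89% and 16.8% of all genes passed. The 1 that passed was Ramp1, the RAMP that makes Calcrl a CGRP receptor. Ramp1 was 6.95, 7.74, 7.33 and 7.04 in pheochromocytoma, against 6.95 and 5.70 in older wild type, a difference of 0.94 ± 0.28 (limma, adjusted p = 0.0358). Without older pool 2, at 5.70, the Ramp1 difference was 0.32 (limma, adjusted p = 0.626), and the call also ended without pheochromocytoma replicate 2 (0.0829) or 3 (0.0661). Ramp2 and Ramp3, which pair with Calcrl for adrenomedullin, differed by -0.50 ± 0.24 and -0.45 ± 0.18 in hyperplasia and by -0.16 and 0.05 in pheochromocytoma, and none of these passed.

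Of 13 genes of G protein subunits and adenylyl cyclases, 0 passed in either comparison (limma). The subunit genes were Gnas, Gnal, Gnb1, Gng2, Gnaq and Gna11, not all of them particular to Gs. An unadjusted p under 0.05 was found for 3 of the 13 in hyperplasia and 1 in pheochromocytoma. Of all 31042 probe sets, not cut to 1 per gene, 7045 and 9187 had such a p. Among 20 genes of protein kinase A, EPAC and the cAMP phosphodiesterases, 1 rose and 2 fell in hyperplasia, and 3 rose and 2 fell in pheochromocytoma. The shares of all genes called higher and lower were 5.42% and 3.47% in hyperplasia, and 9.66% and 7.10% in pheochromocytoma. Pkia, an inhibitor of protein kinase A, was 9.39 to 10.16 in hyperplasia against 8.71 and 9.00 in young wild type, a difference of 0.97 ± 0.20 (limma, adjusted p = 0.00868). Prkar2b, a regulatory subunit of protein kinase A, fell by 1.24 ± 0.28 in pheochromocytoma (limma, adjusted p = 0.00855), and by 0.63 without older pool 2 (limma, adjusted p = 0.269). Pde4b, a cAMP phosphodiesterase, rose by 1.06 ± 0.24 in pheochromocytoma (limma, adjusted p = 0.00975). Pde8a, also a cAMP phosphodiesterase, fell by 0.55 ± 0.12 in hyperplasia and by 0.59 ± 0.13 in pheochromocytoma (limma, adjusted p = 0.0125 and 0.00873). Pde7b, a further cAMP phosphodiesterase, fell by 0.47 ± 0.14 in hyperplasia (limma, adjusted p = 0.0488), lost its call in 16 of 26 alternatives, and differed by -0.21 without young pool 1 and by -0.73 without young pool 2. The call for Pkia ended without young pool 1 (limma, adjusted p = 0.124) or pool 2 (0.0538), and that for Pde4b without older pool 1 (0.0681) or pool 2 (0.0665). Pde8a lost its call in hyperplasia without young pool 1 (limma, adjusted p = 0.178) and in pheochromocytoma without older pool 2 (0.100).

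Of 22 CREB factors and cAMP-induced targets, 1 fell in hyperplasia and 2 fell in pheochromocytoma, where 3.47% and 7.10% of all genes were called lower. Crem, a cAMP-responsive factor of the CREB family, fell by 2.18 ± 0.36 in pheochromocytoma (limma, adjusted p = 0.00144) and by 1.20 ± 0.33 in hyperplasia (limma, adjusted p = 0.0365). Crem was 9.92, 10.43, 11.09 and 10.19 in pheochromocytoma against 11.85 and 13.33 in older wild type. Bdnf fell by 1.60 ± 0.51 in pheochromocytoma (limma, adjusted p = 0.0474), and without older pool 2, whose level was 7.27, the Bdnf difference was -0.07 (limma, adjusted p = 0.934). The Crem call in pheochromocytoma ended without older pool 2 as well (difference -1.44, limma adjusted p = 0.0642). In hyperplasia it ended without young pool 1 (limma, adjusted p = 0.279), without young pool 2 (0.126) and without hyperplasia replicate 1, 3, 4 or 5 (0.0545 to 0.0575). The Bdnf call ended without any single array except older pool 1.

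Of 9 genes of receptor desensitisation, 2 rose in hyperplasia, and 3 rose and 1 fell in pheochromocytoma. Over all genes 5.42% were called higher and 3.47% lower in hyperplasia, and 9.66% and 7.10% in pheochromocytoma. Rgs4, a GTPase-activating regulator of G protein signalling, was 12.08, 12.04, 12.50 and 13.21 in pheochromocytoma against 10.42 and 10.70 in older wild type, a difference of 1.90 ± 0.24 (limma, adjusted p = 0.000241). Grk6, a receptor kinase, rose by 0.37 ± 0.08 in hyperplasia (limma, adjusted p = 0.0131) and by 0.49 ± 0.09 in pheochromocytoma (limma, adjusted p = 0.00311). Arrb2, a beta-arrestin, rose by 0.37 ± 0.11 in hyperplasia and by 0.36 ± 0.12 in pheochromocytoma (limma, adjusted p = 0.0459 and 0.0489), and lost its call in 18 and 23 of 26 alternatives. Without young pool 1 or 2 its hyperplasia difference was 0.28 or 0.46, and without older pool 1 or 2 its pheochromocytoma difference was 0.45 or 0.28. Grk5, another receptor kinase, fell by 0.67 ± 0.15 in pheochromocytoma (limma, adjusted p = 0.00843). Without older pool 2 the pheochromocytoma calls of Grk6 (limma, adjusted p = 0.0669) and Grk5 (0.160) ended, and without young pool 1 or 2 the hyperplasia call of Grk6 ended (0.0644 and 0.166).

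Duct-type epithelial genes mark the kind of cell known to carry the secretin receptor in ducts. Most of them did not pass, and their medians were 0.03 in hyperplasia and 0.37 in pheochromocytoma. Their level averaged 6.30 over the hyperplasias against 5.52 over the young pools, and 6.32 over the pheochromocytomas against 5.41 over the older pools, with no overlap between groups. Epcam, Krt19 and Tspan8 had the largest rises in both comparisons and weigh heavily in these means. With a median of 0.03 in hyperplasia, the mean there does not show a rise across the list. Of 12 measured, 3 rose and 1 fell in hyperplasia, where 5.42% of all genes were called higher and 3.47% lower, and 4 rose and 0 fell in pheochromocytoma, where 9.66% were called higher and 7.10% lower. Epcam, an epithelial adhesion protein, rose by 3.82 ± 0.68 in hyperplasia and 3.23 ± 0.74 in pheochromocytoma, Krt19, a keratin, by 3.11 ± 0.23 and 2.92 ± 0.25, and Tspan8, a tetraspanin, by 2.87 ± 0.46 and 2.75 ± 0.50. Cdh1, E-cadherin, rose in pheochromocytoma by 1.53 ± 0.38, and Cldn4, a claudin, fell in hyperplasia by 0.64 ± 0.16 (limma, largest adjusted p of these calls = 0.0246). Krt7, Krt8, Krt18, Cftr and Muc1, further epithelial genes, did not pass in either comparison. Their part in the Sctr values was not tested.

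The genes whose levels over the 16 arrays were most like those of Sctr were found by Pearson's correlation, 1 probe set per gene. Since the arrays fall into separate mutant and wild-type clusters, these correlations describe that split and carry no test. Entpd3, an ectonucleotidase, had r = 0.975, with means of 7.59 in hyperplasia and 5.17 in young wild type, and 7.37 in pheochromocytoma and 5.58 in older wild type. It was followed by Lrtm2 (r = 0.969), Kif26b, a kinesin (0.967), Lrrc8c, a volume-regulated anion channel subunit (0.966), and Adora2b, the adenosine A2B receptor (0.965). The lowest correlations were those of Fam180a (r = -0.949), Tom1l1 (-0.934) and Rcl1 (-0.930). Over deviations from the group means, the most alike were Zfp423, a zinc finger transcription factor (r = 0.906), Rgs9 (0.906), Cilk1 (0.904), Apba1 (0.894) and Slc44a2 (0.877). The same arrays also differ in cortex marker mean and in 3′ minus 5′ signal, as given above.

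**Figure D4:**
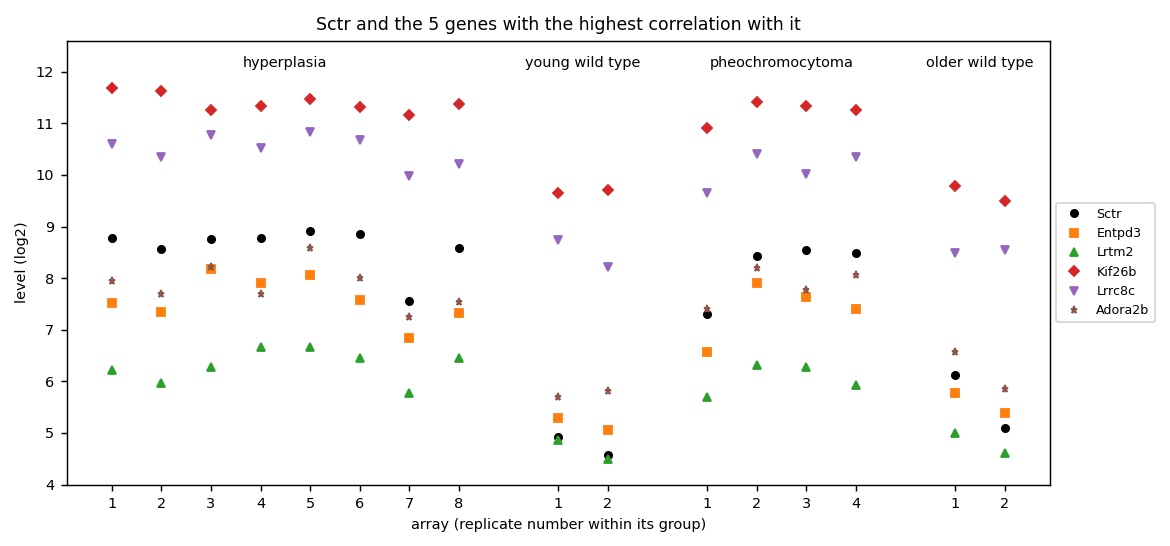
Log2 level (y axis) of Sctr (black) and of the 5 genes with the highest correlation with it (colours), for each of the 16 arrays (x axis, replicate numbers within each group, with each mutant group left of its wild type). Sctr and Entpd3 are low on all 4 wild-type arrays and high on all 12 mutant arrays, with Entpd3 at 6.84 to 8.17 in hyperplasia against 5.06 to 5.28 in young wild type.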

How the data were processed

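Rat adrenal RNA was measured on 16 single-colour Affymetrix arrays. The authors deposited log2 values for 31099 probe sets, made with RMA per the submitters' processing notes, and neither its version nor which arrays were normalized together is given in the sources used here. RMA corrects background, normalizes quantiles and summarises probes, so levels are relative within the set. Symbols came from the platform annotation, and the 57 control probe sets were left out. The fit used limma 3.58.1 under R 4.3.3 on all 16 arrays with 4 group levels and no covariate (12 residual degrees of freedom, median prior 3.98), two-sided, Benjamini-Hochberg over 31042 probe sets, threshold 0.05. The fit was tested on simulated data. The number of arrays limits the precision. A gene of a list was represented by its brightest probe set. Named genes were all member probe sets, up to 3 passing members per list, fixed ligands and RAMPs, and the genes most like Sctr. The members and lists were chosen with earlier results of these data known. Each array was taken as a separate sample; the labels call most of them biological replicates, and p-values measure the spread between these samples only. Replicate numbers did not pair samples (correlations of deviations -0.08 to 0.05). Alternatives were labelled sex or Xist level as covariate, other normalizations and filters, the replicate block, the cortex marker mean, fewer groups, the mean of a gene's probe sets and leaving out each array, plus 2 added after the data were seen: leaving out 4 hyperplasias, and the 3′ minus 5′ signal as covariate.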

Additional observations from a re-analysis of the deposited data

Results flagged for a closer look

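In groups of 4 to 10 arrays, the arrays set far from the rest of their group were sought among 106 group tests of the named probe sets and 9 stood out. Chance flags about 5% of independent groups, but 5 of the 9 are Sctr, on which the family was selected, or Zfp423 and Apba1, which were chosen for sharing its deviations from the group means, so the count cannot be set against that rate. Sctr was 7.56 in hyperplasia replicate 7, against 8.57 to 8.91 in the other hyperplasias, and 7.31 in pheochromocytoma replicate 1, against 8.43 to 8.54 in the other tumours. Hyperplasia replicate 7 also stood apart for Vip (8.19, others 6.32 to 6.98), and pheochromocytoma replicate 1 for Gcgr (7.39, others 8.23 to 8.32). The choice of Zfp423 and Apba1 favoured genes that stand apart on these 2 arrays. Zfp423 was 9.22 in hyperplasia replicate 7 (others 9.69 to 10.05), and Apba1 was 9.96 there (others 10.58 to 11.08) and 9.47 in pheochromocytoma replicate 1 (others 10.23 to 10.28). Sct was 4.83 in pheochromocytoma replicate 3 (others 5.24 to 5.30), and Ramp3 was 7.71 in pheochromocytoma replicate 4 (others 7.01 to 7.11).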

How the results depend on the processing

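Over 127 results, 3301 values under alternatives kept direction and side of the threshold in 2963 cases, lost the call in 236, gained it in 31 and turned sign in 69, while 2 Sctr differences moved by more than the spread between replicates (3.17 in hyperplasia and 1.56 in pheochromocytoma, with the cortex marker mean in the fit). Sctr kept its direction against wild type under every alternative run. The cause of the changes below was not tested, and fewer arrays leave fewer degrees of freedom. The precision is limited by 2 pools per wild-type arm, and dim probe sets (Vipr1, Glp1r) lie below the first quartile on most arrays.

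The replicate numbers did not pair the samples. With the replicate block, 556 probe sets passed in hyperplasia, 1593 in pheochromocytoma and 0 for the difference of effects, and signs turned in hyperplasia for Adm (0.0012), Gipr (-0.026) and Crcp (-0.047), and in pheochromocytoma for Glp1r (-0.010), Calcrl 1369647_at (-0.14) and Ramp3 (-0.070).

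With the cortex marker mean, 345 probe sets passed in hyperplasia, 66 in pheochromocytoma and 2 for the difference of effects, and 0 members passed in pheochromocytoma. Signs turned in hyperplasia for Vipr1 1383695_at (-0.25), Adcyap1r1 1387302_at (0.12), Sct (-0.015), Gipr (-0.16), Crcp (-0.015), Pde4b (-0.20), Bdnf (0.12) and Cilk1 (-0.023). They turned in pheochromocytoma for Vipr1 1383695_at (-0.49), Adcyap1r1 1387302_at (0.027) and 1368729_a_at (-0.055), Glp1r (-0.029), Calcrl 1369647_at (-0.50), Adm (-0.53), Ramp3 (-0.17), Gcgr (-0.15), Crcp (-0.00055), Gng2 (-0.16) and Pnmt (0.039).

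With the 3′ minus 5′ control signal, chosen after seeing the data, 1 member passed in hyperplasia, 2 in pheochromocytoma, 0 in pheochromocytoma minus hyperplasia (of 651 probe sets) and 1 in older minus young wild type (of 1156), and 5 probe sets for the difference of effects. Signs turned in hyperplasia for Vipr2 (-0.010), Adcyap1r1 1368729_a_at (0.087), Sct (-0.055) and Adcy9 (-0.079), and in pheochromocytoma minus hyperplasia for Sctr (0.012), Vipr2 (-0.074) and Pth1r 1370259_a_at (0.060). Without the 4 hyperplasias that go against their labelled sex, also chosen after seeing the data, 689 probe sets passed in hyperplasia and 1 for the difference of effects.

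Under median centring 2 members passed in pheochromocytoma and 3 probe sets for the difference of effects, and signs turned for Sct in hyperplasia (-0.012) and for Glp1r (-0.052) and Ramp3 (-0.012) in pheochromocytoma. Under quantile normalization 2 members passed in pheochromocytoma and 14 probe sets for the difference of effects, and Ramp3 turned (-0.039). With the Xist level as covariate Calcrl 1369647_at turned in pheochromocytoma (-0.029). With only the groups compared, 1915 probe sets passed in pheochromocytoma and 3770 in older minus young wild type, with 5 members in the last. Without the 30% dimmest probe sets, 6 members passed in pheochromocytoma minus hyperplasia. With the mean of a gene's probe sets, signs turned for Adcyap1r1 1374681_at in hyperplasia (-0.034) and for 1387302_at and 1368730_a_at in pheochromocytoma (0.15 each), for Calcrl 1369647_at in pheochromocytoma (-0.093), and for Vipr1 1383695_at in hyperplasia (-0.10) and pheochromocytoma (-0.052).

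Leaving out single arrays gave 564 to 2687 probe sets in hyperplasia, 596 to 4781 in pheochromocytoma, 0 to 649 for the difference of effects and 4500 to 7681 in older minus young wild type. Members passing ranged over 0 to 2 in pheochromocytoma, 0 to 1 for the difference of effects and 5 to 8 in older minus young wild type. Differences whose sign turned in hyperplasia ranged over -0.34 to 0.15 (Adcyap1r1 1387302_at), -0.25 to 0.18 (1368729_a_at), -0.13 to 0.019 (Glp1r), -0.071 to 0.056 (Sct), -0.22 to 0.041 (Adcyap1), -0.0097 to 0.17 (Crcp), -0.25 to 0.028 (Gnal) and -0.16 to 0.43 (Adcy9). In pheochromocytoma they ranged over -0.0055 to 0.29 (Vipr1 1383695_at), -0.026 to 0.059 (Glp1r), -0.11 to 0.26 (Calcrl 1369647_at), -0.12 to 0.12 (Ramp3), -0.0083 to 0.29 (Crcp) and -0.14 to 0.035 (Adcy3).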
